A study of Mus musculus with 24 samples.

Results

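Endothelial cells line every blood vessel, and in skeletal muscle most of them form the capillaries that run along the fibres. The transcripts described here are 10 genes that mark these cells: Pecam1, Cdh5, Kdr, Flt1, Tek, Tie1, Vwf, Esam, Cldn5 and Egfl7. They were found by their symbols in the deposited table, where all 10 of 10 were present among 47643 genes. The tissue was the plantaris, a fast hindlimb muscle, of wild type C57BL/6 mice. One group was kept in normal air (11 samples) and the other was exposed to tobacco smoke for 16 weeks (13 samples). The labels give no age, sex, time of day or cage, and nothing says whether a sample is 1 mouse or a pool, so that p-values measure the spread between these samples.

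Endothelial cells take their growth signals mainly through a pair of receptor families. VEGF ligands bind the tyrosine kinases encoded by Kdr (VEGFR2, the main signalling receptor) and Flt1 (VEGFR1, which binds VEGF-A tightly and has a soluble form that acts as a decoy). Angiopoietins bind the kinase encoded by Tek (TIE2), and Tie1 encodes its partner, which has no established high-affinity ligand of its own. Cdh5 (VE-cadherin) and Cldn5 (claudin-5) hold neighbouring endothelial cells together at adherens and tight junctions, while Pecam1 and Esam encode adhesion molecules of the same contacts. Vwf encodes von Willebrand factor, the clotting protein stored in endothelial granules, and Egfl7 encodes a protein secreted by endothelial cells into the vessel wall. Platelets and their precursors also make Vwf and Pecam1, and some leukocytes make Pecam1.

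The promoters of the 4 receptor genes are shown because these genes form the family pairs compared below, and because ETS transcription factors are known regulators of endothelial genes. These factors bind around a GGAA or GGAT core, of which GGAAG, the letters marked here, is 1 longer form. Each line holds the 250 bases before the annotated start, 5′ to 3′ on the strand of the gene, from the RefSeq table of build GRCm38.p6, with GGAAG or its reverse complement CTTCC in capitals. The windows are chr4:118489850-118490099 (minus strand) for Tie1, chr4:94739039-94739288 (plus strand) for Tek, chr5:75978456-75978705 (minus strand) for Kdr and chr5:147726012-147726261 (minus strand) for Flt1.
Tie1: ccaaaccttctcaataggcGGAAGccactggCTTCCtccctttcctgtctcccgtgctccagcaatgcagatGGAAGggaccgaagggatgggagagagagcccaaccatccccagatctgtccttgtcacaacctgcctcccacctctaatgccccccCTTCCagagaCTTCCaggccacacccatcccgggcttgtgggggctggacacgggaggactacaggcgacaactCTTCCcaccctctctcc
Tek: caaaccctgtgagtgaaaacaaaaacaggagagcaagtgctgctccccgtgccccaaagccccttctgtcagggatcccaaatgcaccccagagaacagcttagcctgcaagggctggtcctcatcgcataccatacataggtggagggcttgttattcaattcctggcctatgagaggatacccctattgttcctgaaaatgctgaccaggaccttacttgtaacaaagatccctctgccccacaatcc
Kdr: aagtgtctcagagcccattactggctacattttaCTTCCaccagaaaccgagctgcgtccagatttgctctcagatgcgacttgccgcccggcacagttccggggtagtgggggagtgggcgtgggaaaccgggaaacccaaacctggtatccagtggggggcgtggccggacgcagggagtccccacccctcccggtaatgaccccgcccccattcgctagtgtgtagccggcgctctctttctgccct
Flt1: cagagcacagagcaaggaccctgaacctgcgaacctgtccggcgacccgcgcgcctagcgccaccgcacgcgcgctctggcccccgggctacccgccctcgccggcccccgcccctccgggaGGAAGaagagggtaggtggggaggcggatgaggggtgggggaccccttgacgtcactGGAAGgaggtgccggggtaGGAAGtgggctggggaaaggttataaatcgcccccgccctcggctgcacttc
The Tie1 window held 6 such matches, the Flt1 window 3 and the Kdr window 1, whereas the Tek window held 0. Among 32851 promoter windows of this length in the table, 64.1% held at least 1 match, 0.344% held 6 or more and 35.9% held 0. The shorter GGAA, on either strand and including every GGAAG, was found 7 times in the Tie1 window, 4 times each in those of Flt1 and Kdr and 2 times in that of Tek, and 93.4% of all windows held it. The table held windows for 6 of the 10 genes, with 3 alternative windows for Egfl7, and GGAAG was found for Egfl7, Tie1, Kdr and Flt1 but not for Tek or Cldn5. The KLF-type motif CACCC, on either strand, was found in 6 of the 8 windows of these genes, against 52.0% of all windows. At least 1 window of each of the 6 genes held it. The GATA-type motif AGATAA and the SOX-type motif ACAATG, each on either strand, were found in 0 of the 8 windows of these genes, against 9.99% and 10.7% of all windows. Apart from GGAA within GGAAG, none of these motifs contains another, and they were chosen after expression values were seen. A match is a run of letters and was not tested as a binding site.

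The counts came from a 3′-end kit (QuantSeq), which gives a transcript reads near its poly(A) end whatever its length. Levels are therefore given in CPM (counts scaled for library size, with TMM factors) without division by length, and an unannotated 3′ end can lower a gene's value. Total counts ranged from 2515697 to 4528845 per sample, and 3 counts corresponded to 0.662 to 1.19 CPM. Muscle genes led the libraries: 7 of 7 myofibre genes were tested, with Acta1 (skeletal actin) at 52109 CPM and Myh4 (fast myosin) at 39487 CPM in air. All 10 endothelial genes had counts in every sample, from 8 counts of Tek in 1 smoke sample to 576 of Flt1 in 1 air sample, and all 10 passed the expression filter. In bulk muscle, fewer endothelial cells and less RNA per endothelial cell cannot be told apart.

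None of the endothelial markers passed the test between smoke and air. By edgeR's quasi-likelihood test, 0 of the 10 passed an adjusted p under 0.05, beside 1.92% of the 10159 genes tested (0.728% called higher and 1.19% called lower under smoke). DESeq2 and limma voom also called 0. At an unadjusted p under 0.05 edgeR gave 2 of 10, Vwf and Kdr, beside 15.5% of all genes tested. DESeq2 also gave 2 and limma voom gave 0, and edgeR gave 0 when air replicate 4, smoke replicate 8 or smoke replicate 10 was left out. The log2 fold changes of smoke against air ran from −0.21 to 0.25, with 5 positive and 5 negative, and their median was 0.01, the same as the 0.01 over all genes tested. The 10 genes together made up 436 ± 34.6 CPM in air (SD, n = 11), and under smoke 425 ± 28.5 CPM (SD, n = 13). Single samples held 383 to 503 CPM in air and 379 to 469 CPM in smoke, and the ranges overlapped.

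**Figure D1:**
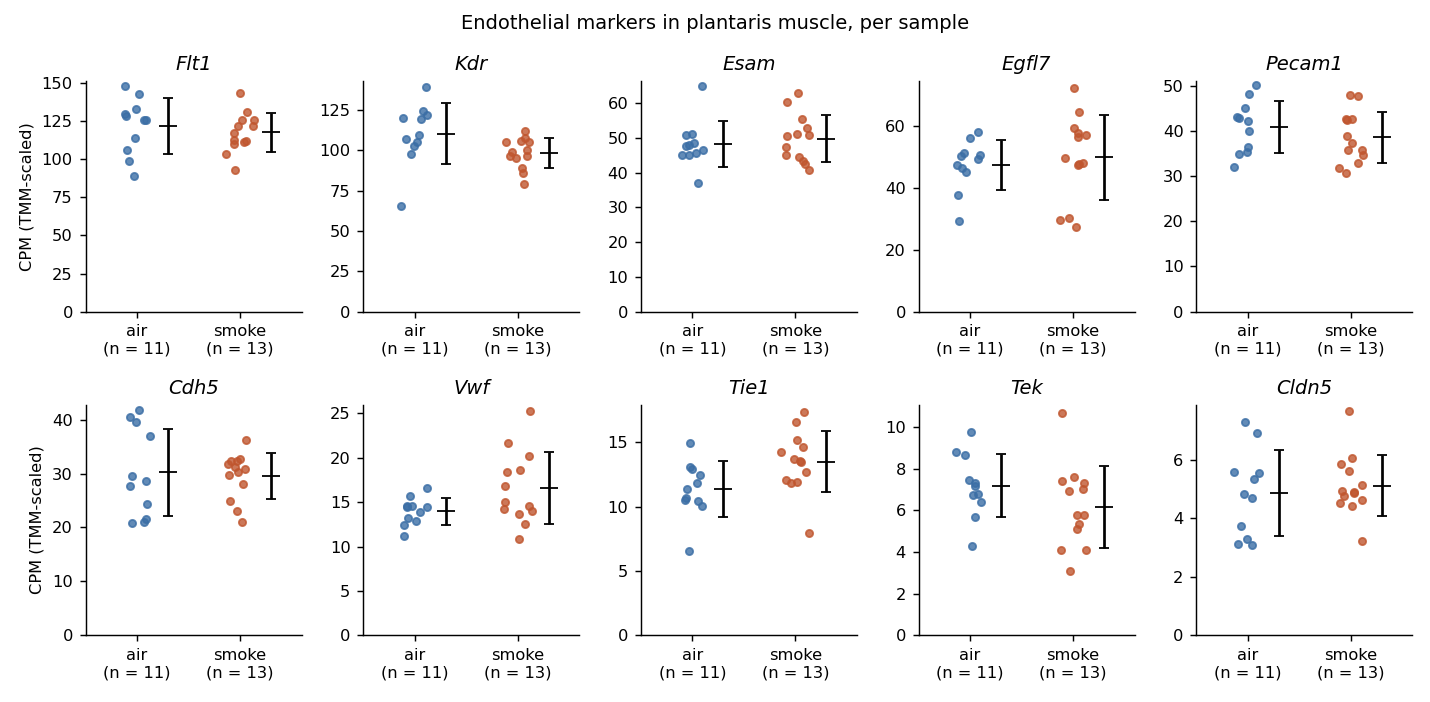
CPM of each of the 10 endothelial markers (vertical axes, from 0) in 11 air and 13 smoke samples, 1 point per sample, with mean and SD as bars beside the points. Air and smoke samples overlapped for each of the 10 genes.

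The VEGF receptors were the most abundant of the set. Kdr (chromosome 5) lay between 65.4 and 139 CPM in air, with a median of 109 CPM. In smoke it lay between 79.0 and 112 CPM, with a median of 98.9 CPM. The smoke samples sat inside the air range, and 12 of 13 of them were below the air mean of 110.1 CPM. The log2 fold change was −0.17 (SE 0.08, 95% interval −0.33 to −0.0045, edgeR adjusted p = 0.303). Air replicate 5 held the lowest Kdr of the 24 samples, and without it the fold change was −0.23 on the log2 scale (edgeR adjusted p = 0.0653). Air replicate 1 held the highest, and without it the value was −0.13 (edgeR adjusted p = 0.455).

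Flt1 (chromosome 5) lay between 88.8 and 148 CPM in air, with a median of 126 CPM, and between 92.9 and 143 CPM in smoke, with a median of 117 CPM. The ranges nearly coincided, and the log2 fold change was −0.06 (SE 0.07, 95% interval −0.20 to 0.09, edgeR adjusted p = 0.783). Air replicate 5, lowest for Kdr, was highest for Flt1. The ratio of Flt1 to Kdr averaged 1.16 ± 0.402 over the air samples (SD, n = 11) and 1.21 ± 0.179 over the smoke samples (SD, n = 13), with medians of 1.06 and 1.17. The highest ratio, 2.27, was in an air sample, and the ratio was above 1 in 6 of 11 air and 12 of 13 smoke samples. It was looked at after both levels were seen and was not tested.

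The angiopoietin receptor pair was less abundant and its genes lay on opposite sides of zero. Tek (chromosome 4) ranged from 4.31 to 9.75 CPM in air, with a median of 7.15 CPM, and from 3.07 to 10.7 CPM in smoke, with a median of 5.79 CPM. Smoke held both the lowest and the highest sample, and 9 of 13 smoke samples were below the air mean. The log2 fold change was −0.21 (SE 0.16, 95% interval −0.54 to 0.11, edgeR adjusted p = 0.568). It was −0.34 when smoke replicates 12 and 13, the latter holding the highest Tek, were left out (unadjusted p = 0.0375, adjusted p = 0.261 by edgeR), and −0.35 when the same 22 samples were fitted with the replicate number as a block (unadjusted p = 0.0366, adjusted p = 0.275 by edgeR). It was −0.42 with the mean level of Schwann cell genes as a covariate (unadjusted p = 0.0305, adjusted p = 0.330 by edgeR). That covariate itself correlated with exposure (r 0.56). Tek was not called in these 3 fits.

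Tie1 (chromosome 4) ranged from 6.55 to 15.0 CPM in air, with a median of 11.4 CPM. In smoke it ranged from 7.98 to 17.4 CPM, with a median of 13.6 CPM, and 12 of 13 smoke samples were above the air mean. The log2 fold change of 0.24 did not pass the test (SE 0.12, 95% interval −0.0031 to 0.48, edgeR adjusted p = 0.331). It was 0.15 with the Schwann covariate and 0.35 with the corresponding red cell covariate, and was not called in either. Both covariates correlated with exposure (r 0.56 and −0.57). The ratio of Tie1 to Tek, looked at after both values were seen and therefore not tested, averaged 1.67 ± 0.570 over the air samples (SD, n = 11) and 2.38 ± 0.827 over the smoke samples (SD, n = 13). It ranged from 0.964 to 2.75 in air and from 1.27 to 4.125 in smoke, so that the groups overlapped.

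**Figure D2:**
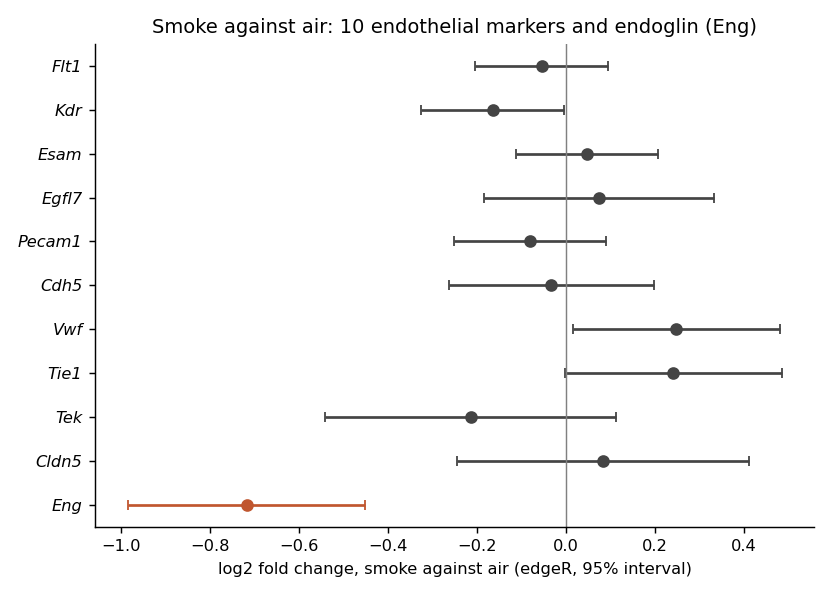
Log2 fold change of smoke against air (horizontal axis; points) with 95% intervals (bars) from edgeR for the 10 endothelial markers and for Eng, which encodes the co-receptor endoglin. The 10 markers lie between −0.21 and 0.25 and Eng lies at −0.72.

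Among the genes of cell contacts, Pecam1 (chromosome 11) ranged from 32.04 to 50.03 CPM in air and from 30.7 to 47.9 CPM in smoke, with medians of 42.3 and 37.3 CPM. Its log2 fold change was −0.08 (SE 0.08, 95% interval −0.25 to 0.09, edgeR adjusted p = 0.711). Esam (chromosome 9) ranged from 37.0 to 65.0 CPM in air and from 40.6 to 62.9 CPM in smoke, and its log2 fold change was 0.05 (95% interval −0.11 to 0.21, edgeR adjusted p = 0.843). For both of these adhesion genes the groups covered nearly the same range.

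Cdh5 (chromosome 8) had medians of 28.5 CPM in air and 30.8 CPM in smoke, and a log2 fold change of −0.03 (95% interval −0.26 to 0.20, edgeR adjusted p = 0.930). Its air samples spread from 20.8 to 41.7 CPM and held the 4 highest values, while its smoke samples spread from 21.1 to 36.3 CPM. Cldn5 (chromosome 16), the scarcest of the set at 9 to 24 counts per sample, had a log2 fold change of 0.08 (95% interval −0.25 to 0.41, edgeR adjusted p = 0.867).

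Of the secreted products, Vwf (chromosome 6) ranged from 11.3 to 16.7 CPM in air, with a median of 14.4 CPM. In smoke it ranged from 10.9 to 25.3 CPM, with a median of 15.0 CPM, and smoke held the 6 highest samples as well as the lowest. The log2 fold change was 0.25 (SE 0.11, 95% interval 0.02 to 0.48, edgeR adjusted p = 0.280), with 10 of 13 smoke samples above the air mean. The SD was 1.52 CPM among air and 4.06 CPM among smoke samples, and this difference in spread was not tested. Of the platelet markers, which could share Vwf, only Pf4 passed the filter (17.1 ± 3.98 CPM in air, 16.3 ± 3.61 CPM in smoke). The other 9 of the 10 listed platelet genes were under the filter. They ran from Gp1ba and Gp6, each with 0 counts over all air and 1 over all smoke samples, to Itga2b with 67 and 85 and Itgb3 with 67 and 65.

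Egfl7 (chromosome 2) ranged from 29.1 to 58.1 CPM in air and from 27.5 to 72.1 CPM in smoke, with medians of 49.1 and 49.7 CPM. Its log2 fold change was 0.07 (SE 0.13, 95% interval −0.18 to 0.33, edgeR adjusted p = 0.846). In 4 libraries it lay near 30 CPM, at 27.5 (smoke replicate 10), 29.1 (air replicate 9), 29.5 (smoke replicate 7) and 30.3 CPM (smoke replicate 9), and every other library was at 37.6 CPM or above. Both groups held such libraries. Of these 4, smoke replicates 7 and 9 and air replicate 9 were the 3 deepest of the series, at 4410423, 4528845 and 4060568 counts. Smoke replicate 10, with the lowest Egfl7 of all, was among the shallower libraries at 3042477 counts. Over 24 samples with group means removed, Egfl7 against log2 depth gave a Pearson coefficient of −0.49 (permutation p = 0.0250). Spearman's coefficient was also −0.49 (permutation p = 0.0193). After adjustment over 10 such relations, 1 per marker, these were 0.250 and 0.193, and Pearson's coefficient fell in size to −0.36 once the 2 libraries of most extreme depth were dropped. The part of depth in the low values was not tested.

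Egfl7 is also the host gene of miR-126, a microRNA abundant in endothelial cells, whose mature strand lies at chr2:26591402-26591423 (plus strand, RefSeq, GRCm38.p6) and is shown because it is made from the same primary transcript; the seed, bases 2 to 8, is in capitals.
mmu-miR-126a-3p: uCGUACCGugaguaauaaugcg
The microRNA has no poly(A) tail after processing, and its gene had 0 counts in both groups, so these counts say nothing of its level. Egfl7 overlaps Agpat2 on the other strand. Whether counting used strand is not given in the sources used here. Agpat2 had means of 4.24 (air) and 4.40 CPM (smoke). Its correlation with Egfl7 over 24 samples did not pass (1 relation; Pearson −0.36 with permutation p = 0.107, Spearman −0.23 with permutation p = 0.295, and Pearson −0.24 when the 2 most distant samples were dropped). Cdh5 overlaps Gm29682, also on the other strand and not analysed here, and the other 8 genes overlap no annotated gene.

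In order of mean CPM over 24 samples the set ran Flt1 (119.5), Kdr (103.6), Esam (49.1), Egfl7 (48.6), Pecam1 (39.6), Cdh5 (29.9), Vwf (15.4), Tie1 (12.5), Tek (6.63) and Cldn5 (5.004). These are CPM of 3′ reads. Kdr stood above Esam in 24 of 24 samples, Cdh5 above Vwf in 23, and Tie1 above Tek in 23, so that the order had steps at these places. Esam was above Egfl7 in only 10 of 24, and these neighbours did not differ beyond their spread (mean log2 difference 0.04 ± 0.37 SD). Flt1 was above Kdr in 18 of 24 (0.21 ± 0.31 SD), Egfl7 above Pecam1 in 18 (0.27 ± 0.36 SD) and Tek above Cldn5 in 18 (0.39 ± 0.53 SD), each within 1 SD. Pecam1 was above Cdh5 in 20 of 24 (0.42 ± 0.38 SD), a difference just over 1 SD. Vwf was above Tie1 in 21 (0.30 ± 0.34 SD), within 1 SD.

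How far a marker varied between samples of one group differed over the set. The coefficient of variation within groups, pooled over both, was lowest for Flt1 (13.01%), Esam (13.8%), Kdr (14.01%) and Pecam1 (14.4%). It was 18.2% for Tie1, 20.6% for Vwf, 21.2% for Cdh5, 23.7% for Egfl7, 24.98% for Cldn5 and 26.9% for Tek. For Cldn5 the spread was close to what counting alone gives at its mean count (24.1%), a ratio of 1.04, and for Tie1 and Tek the ratios were 1.20 and 1.29. For Egfl7 the pooled value was 3.06 times the counting error, for Flt1 2.66 times, for Kdr 2.65 times and for Cdh5 2.16 times. By group, the Egfl7 coefficient of variation was 17.2% in air, near the 17.3% of Kdr, and 27.6% in smoke, where Kdr had 9.40%. The 3 lowest pooled ratios thus belonged to the 3 scarcest genes.

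**Figure D3:**
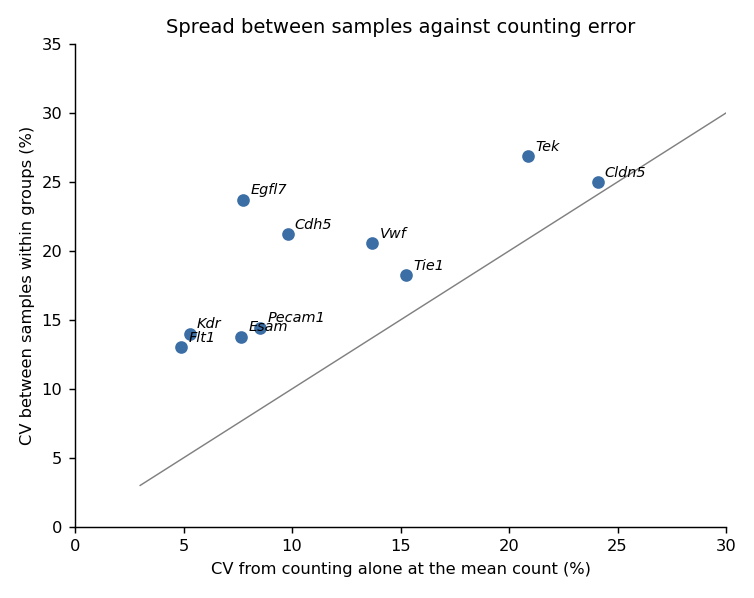
Coefficient of variation between samples within groups (vertical axis) against that expected from counting alone at the gene's mean count (horizontal axis), in percent, 1 point per marker. The line marks equal values. Cldn5 lies near the line at 24.98% against 24.1%, and Egfl7 lies far above it at 23.7% against 7.76%.

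Whether the markers went together from sample to sample was asked in pairs. Of 45 pairs, with group means removed and n = 24, 0 passed Benjamini-Hochberg adjustment by a permutation test of Pearson's r, and 4 had an unadjusted p under 0.05. The median r was 0.09, with 27 of 45 positive, and the median r of these genes with all other tested genes was −0.0009. The 5th and 95th percentiles of the latter were −0.40 and 0.41. Kdr and Esam gave the largest r, 0.64 (permutation p = 0.00230, adjusted p = 0.103) with Spearman's rho 0.42 (permutation p = 0.0394, adjusted p = 0.648). It was 0.78 in air and 0.50 in smoke, and 0.38 when the 2 samples most extreme in Kdr were dropped, so that the value rested in part on those samples.

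Esam and Cdh5 gave r 0.42 (permutation p = 0.0404, adjusted p = 0.499), which did not pass. Their rho was 0.37 (permutation p = 0.0651, adjusted p = 0.648), and r was 0.50 without 2 samples. Tie1 and Egfl7 gave r 0.41 (permutation p = 0.0444, adjusted p = 0.499) but rho 0.02 (permutation p = 0.945, adjusted p = 1), and r became −0.10 when 2 samples were dropped, so that the relation rested on those samples. Flt1 and Tek gave the lowest r, −0.45 (permutation p = 0.0207, adjusted p = 0.466), which did not pass. Their rho was −0.39 (permutation p = 0.0567, adjusted p = 0.648), and r was −0.26 without 2 samples. Each marker against the mean of the other 9 gave r from −0.26 for Flt1 to 0.55 for Esam, with Kdr at 0.49.

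**Figure D4:**
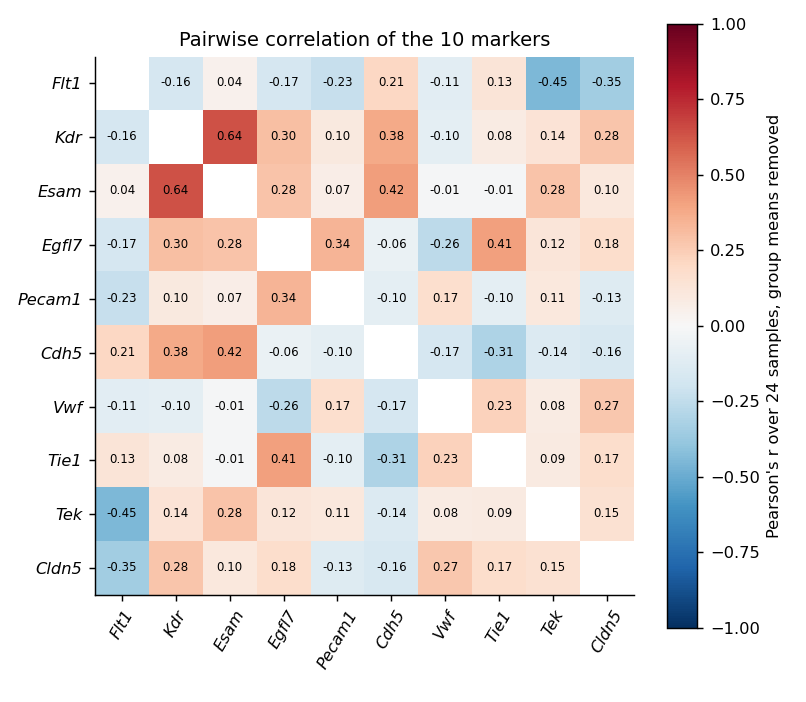
Pearson's r between each pair of the 10 markers over 24 samples after group means were removed (colour and printed value, genes ordered by mean CPM on both axes). Kdr with Esam is the highest at 0.64 and Flt1 with Tek the lowest at −0.45.

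The tested genes outside the set whose log2 CPM was most like the mean of the 10 standardised markers (Pearson's r over 24 samples, group means removed) were Taf15 (0.70), Cbr1 (0.69), Aldh1l1 (0.67), Nos3 (0.67) and Kmt5c (0.64). Nos3, endothelial nitric oxide synthase, was the only listed endothelial gene among these 5. These are the 5 highest values of all genes tested and are given as a description.

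Around the 10 markers, 1 gene of the vessel lists fell under smoke: Eng, which encodes endoglin, an endothelial co-receptor for ligands of the BMP and TGF-β family. Eng (chromosome 2) ranged from 17.4 to 29.7 CPM in air, with a median of 21.4 CPM, and from 7.92 to 22.9 CPM in smoke, with a median of 12.97 CPM. The smoke median lay below the lowest air sample, though the ranges overlapped. Of the smoke samples, 12 of 13 held less than the air average of 22.7 ± 4.71 CPM (SD, n = 11), and their own average was 13.8 ± 4.001 CPM (SD). The log2 fold change was −0.72 (SE 0.13, 95% interval −0.98 to −0.45, edgeR adjusted p = 0.00230). Eng overlaps Fpgs on the opposite strand (49 counts over all air and 73 over all smoke samples) and Mir1954, Gm47291 and Gm26236 on its own strand (0, 4 and 11 counts in air, 0, 4 and 18 in smoke).

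Eng was the only call among 11 tested co-receptors and vascular receptors, whose median log2 fold change was −0.04. Its signalling partner Acvrl1 (ALK1) averaged 18.6 ± 4.17 CPM under air against 15.5 ± 3.66 CPM under smoke (−0.26, edgeR adjusted p = 0.318), and the BMP receptor Bmpr2, at 68.3 and 69.3 CPM, differed by 0.02 on the log2 scale (edgeR adjusted p = 0.934). The VEGF co-receptor Nrp1 stood at 34.9 ± 6.12 and 40.9 ± 4.92 CPM (0.23, edgeR adjusted p = 0.175). The 10 markers were pooled with the lists of co-receptors, other surface markers, capillary transport, transcription factors, arterial genes and venous genes. Of the 61 distinct genes tested in these 7 lists 1 was called, beside 1.92% of all genes tested, and their median log2 fold change was −0.02.

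Of 13 angiogenic ligands 9 were tested and 0 called, with a median log2 fold change of −0.07. Vegfa, the ligand of Kdr and Flt1, averaged 115 ± 29.5 CPM under air against 91.2 ± 16.6 CPM under smoke (log2 fold change −0.34, SE 0.11, edgeR adjusted p = 0.118). Of the smoke samples, 12 of 13 held less than the air average. Vegfb was at 117 and 114 CPM (−0.04, edgeR adjusted p = 0.794). Cxcl12, a chemokine, held less than the air average in 13 of 13 smoke samples but did not pass the test (−0.30, edgeR adjusted p = 0.0643). Angpt1, the main ligand of Tek, differed by −0.07 on the log2 scale (edgeR adjusted p = 0.899), and Angpt2 was under the filter with 58 counts over all air and 47 over all smoke samples.

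None of the other vessel lists held a called gene by edgeR. The count at an unadjusted p under 0.05 is given for each, beside 15.5% of all genes tested at that threshold. Junction partners had 0 of 10 called and 2 unadjusted, with a median log2 fold change of 0.09. Ctnnb1 (β-catenin) and Jup (plakoglobin), which bind VE-cadherin inside the cell, stood at 0.01 and −0.09. The 2 unadjusted were Jam3 at 0.32 and Afdn at 0.19 (edgeR adjusted p = 0.128 and 0.283). Endothelial transcription factors had 0 of 9 tested (13 listed) called and 1 unadjusted, with 5 of 9 positive and a median of 0.07. Erg, Sox7, Sox18 and Tal1 were under the filter. Epas1 (HIF-2α) stood at −0.07 and Ets2 at −0.09, and the gene with the unadjusted p under 0.05 was Fli1 at 0.48 (edgeR adjusted p = 0.153). Other endothelial surface and enzyme markers had 0 of 11 called and 3 unadjusted, with 9 of the 11 negative and a median of −0.10. Ly6a stood at −0.16 and Mmrn2 at −0.01. The 3 unadjusted were Ly6a, Thbd at −0.40 and Procr at 0.32 (edgeR adjusted p = 0.251, 0.140 and 0.200). Capillary transport markers had 0 of 11 and 2 unadjusted, with a median of −0.02 and 6 of 11 negative. The fatty acid carrier Fabp4 stood at 0.10 and the water channel Aqp1 at 0.05. The 2 with an unadjusted p under 0.05, named after their values were seen, were Gpihbp1, which holds lipoprotein lipase on capillaries (−0.29, edgeR adjusted p = 0.135), and the fatty acid receptor Cd36 (−0.18, edgeR adjusted p = 0.191).

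Of the vessel-type markers, 5 of 11 arterial genes were tested, with 0 called and 0 unadjusted, and Notch4 at −0.15 and Notch1 at 0.13. Gja5, Efnb2, Hey1, Hey2, Dll4 and Bmx were under the filter. For venous genes 4 of 7 were tested, with 0 called and 0 unadjusted, and Nr2f2 at 0.07 and Lrg1 at −2.5e-06. Ephb4, Ackr1 and Selp were under the filter. Lymphatic genes had 0 of 3 tested (6 listed) called and 0 unadjusted, with Pdpn at −0.03 and Reln at 0.54, and Ccl21a had 0 counts in every sample. Mural cell genes, which mark pericytes and smooth muscle around the endothelium, had 0 of 10 called and 2 unadjusted, with 6 of 10 positive and a median of 0.07. Rgs5 stood at 0.07 and Abcc9 at 0.12, and the 2 with an unadjusted p under 0.05 lay on opposite sides: Myh11, the smooth muscle myosin, at 0.50 (edgeR adjusted p = 0.0558) and Higd1b at −0.52 (edgeR adjusted p = 0.0884). Angiostatic genes had 0 of 3 tested (7 listed) called and 1 unadjusted, with Timp3 at 0.16 and Adamts1 at −0.37 (edgeR adjusted p = 0.0914). DESeq2 and limma voom were compared for the 10 markers and Eng only.

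**Figure D5:**
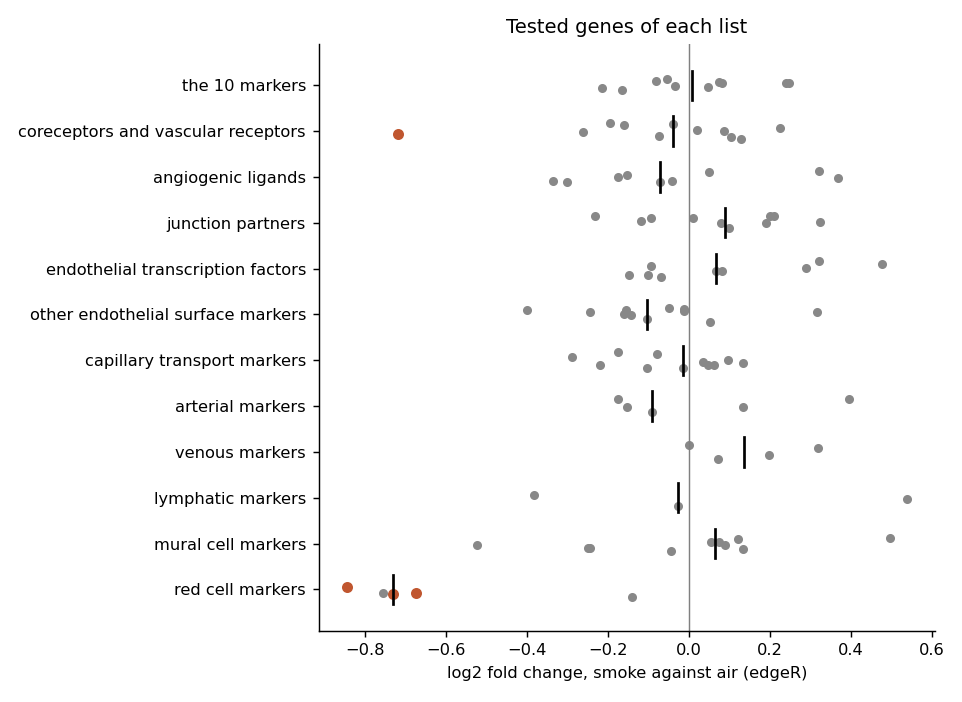
Log2 fold change of smoke against air by edgeR (horizontal axis) for the tested genes of 12 lists, 1 point per gene, with the list median as a vertical bar. Coloured points passed an adjusted p under 0.05: Eng among the receptors and 3 red cell genes, all below zero.

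Markers of other cells in the samples did differ between the groups. The 5 red cell genes summed to 486 to 1444 CPM in air and 369 to 883 CPM in smoke, and 3 of 5 fell: Hbb-bs (log2 fold change −0.84), Hbb-bt (−0.73) and Hba-a2 (−0.67; edgeR adjusted p = 0.0142, 0.0229 and 0.0369), while Hba-a1 stood at −0.14. Hbb-bs and Hbb-bt are close copies of each other, as are Hba-a1 and Hba-a2, and reads may be split within each pair. The 5 Schwann cell genes summed to 147 to 305 CPM in air and 205 to 918 CPM in smoke, and Prx and Pmp22 were among those called (log2 fold changes 1.48 and 0.88, edgeR adjusted p = 0.0362 and 0.0481). Their medians lay closer together than these folds: 3.13 CPM (air) and 5.94 CPM (smoke) for Prx, whose smoke samples ran from 1.78 to 38.6 CPM, and 32.5 and 38.0 CPM for Pmp22, whose smoke samples ran from 27.8 to 142 CPM. S100b stood at 0.31 and Mbp at 0.41 (edgeR adjusted p = 0.195 and 0.204). The lists of fibroblast, adipocyte, leukocyte, slow fibre and myofibre genes held 0 called genes, with 2, 2, 0, 3 and 2 at an unadjusted p under 0.05. Their medians were −0.18, 0.01, −0.02, 0.02 and 0.0025, and of the 7 slow fibre genes 4 were positive and 3 negative. Their most abundant tested genes had log2 fold changes of −0.08 for Dcn and −0.37 for Col1a1, 0.29 for Cfd and 0.12 for Adipoq, −0.03 for Lyz2 and −0.02 for Csf1r, −0.29 for Myl3 and −0.46 for Myl2, and −0.04 for Acta1 and 0.16 for Myh4. The 5 adipocyte genes ran from −1.22 to 0.29, with 3 positive and 2 negative. With the mean log2 expression of the red cell or of the Schwann genes as a covariate, 0 of the 10 endothelial markers were called, and Eng was called at −0.91 and −0.80 on the log2 scale. Both covariates correlated with exposure (r −0.57 for red cell and 0.56 for Schwann genes), so that each shares part of the difference between groups. The part of either cell type in the values above was not tested beyond this.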

How the data were processed

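RNA of plantaris muscle was sequenced from 24 samples (11 air, 13 smoke) with the Lexogen QuantSeq 3′ FWD kit on an Illumina HiSeq instrument, per the labels' protocols. The authors deposited raw read counts per Ensembl gene ID, 1 column per sample. STAR, DESeq2 and the build mm9 are named, without role or version, per the submitters' processing notes; the annotation, strand use and use of molecular identifiers are not given in the sources used here, so that detection floors cover counting error only. Columns were matched to samples by title. Symbols came from GENCODE M21, which held 47224 of 47643 IDs (99.1%); since the builds differ, only chromosomes and overlaps are given for genes.

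Counts were tested with edgeR 4.0.16 (R 4.3.3): filterByExpr (minimum count 10), TMM, glmQLFit and glmQLFTest, smoke against air on all 24 samples with no covariate, Benjamini-Hochberg adjustment over 10159 genes. The SE came from the fold change and its F value, and the 95% interval from the matching t quantile. Correlations used log2 CPM (prior count 2) with group means removed and 100000 permutations within groups. The procedure was tested on simulated data. The genes named were the 10 markers, each list's called genes and its 2 most abundant tested genes (less 1 gene that is not reported here), and the 5 genes most like the markers; others were named after their values were seen. The members and lists were chosen with earlier results of these data known. Counts of 133 pairs of samples within groups differed by 2.51 to 18.7 in chi-square per gene, so no samples were merged. Alternatives used DESeq2 1.42.0, limma 3.58.1, other scalings and filters, covariates, the replicate block and leaving out each sample; the Schwann covariate, the 22 samples without the block and all alternatives for Eng were added after the data were seen.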

Additional observations from a re-analysis of the deposited data

How the results depend on the processing

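Under 11 alternatives and 24 fits that each left out 1 sample, 0 of the 10 markers were called, and their median log2 fold change lay between −0.03 and 0.02 over the alternatives and between −0.02 and 0.04 over the left-out samples. The direction changed for Egfl7 when smoke replicates 12 and 13, whose numbers occur only among smoke samples, were left out (−0.0088), and with the replicate block on the same 22 samples (−0.031). It changed for Cdh5 with the Schwann covariate (0.056) and when air replicate 7, 9 or 10 was left out (range −0.081 to 0.022 over 24 fits); the cause was not tested. Over the 11 alternatives (10 for Cldn5), with no call, Pecam1 lay between −0.17 and −0.08, Cdh5 between −0.09 and 0.06, Kdr between −0.21 and −0.15, Flt1 between −0.08 and −0.0019, Tek between −0.42 and −0.20, Tie1 between 0.15 and 0.35, Vwf between 0.20 and 0.28, Esam between 0.0077 and 0.06, Cldn5 between 0.01 and 0.12 and Egfl7 between −0.03 and 0.13. Leaving out 1 sample gave −0.11 to −0.05 for Pecam1, −0.23 to −0.13 for Kdr, −0.10 to −0.03 for Flt1, −0.31 to −0.16 for Tek, 0.17 to 0.29 for Tie1, 0.19 to 0.29 for Vwf, 0.01 to 0.10 for Esam, 0.02 to 0.15 for Cldn5 and 0.01 to 0.12 for Egfl7. By edgeR, 0 to 3 of the 10 had an unadjusted p under 0.05 in each fit. In the fit on all 24 samples, 15.5% of all genes tested did. The number of genes called over the whole table was 195, and it was 323 with DESeq2, 56 with the blood covariate and 84 with the Schwann covariate, while leaving out samples gave 141 to 254. Eng was called in every alternative (log2 fold change −0.91 to −0.71, adjusted p 7.99e-05 to 0.00857) and every fit with a sample left out (−0.80 to −0.67, adjusted p 0.000377 to 0.00663). Replicate numbers are shared by both groups, and the labels do not say whether they pair the samples. Same-numbered samples correlated at a mean r of −0.0059 over 11 pairs (−0.28 to 0.14, with 4 over 0.1). The mean r of the other 132 pairs was 0.0011, and 2 of 11 air samples correlated best with their own number. With the replicate block 138 genes and 0 markers were called, 53 of the genes higher under smoke; the same 22 samples without the block also gave 0 markers, with 88 genes higher under smoke. With a prior count of 0.5 or by Spearman's rho, 0 of 45 pairs passed. With a minimum of 5 CPM in 11 samples, Cldn5 was not tested. Counting error was largest for Cldn5 and Tek, at 8 to 39 counts per sample.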
